A study of Sus scrofa with 6 samples.

Results

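The transcripts of 8 genes of insulin and insulin-like growth factor (IGF) signalling were measured in whole pig embryos at embryonic day 21. There were 3 embryos in the parthenogenetic (PA) and 3 in the control (CN) group. Some of the genes pass the signal on and others hold it back. The genes were INSR, PIK3R2, HRAS, MAP2K2, RPS6KB2, STK11, BAD and RASA1, taken by name as the chromosome 2 loci of those symbols. They are 8 of the 30434 genes in the deposited tables, and all 8 were among the 1652 genes that passed the expression filter, of which 1539 lie on chromosome 2. In this comparison the paternally expressed ligand IGF2 was almost missing from PA. Of the 8 signalling genes, 0 were called different between PA and CN, where 6.54% of all genes tested were called. The 95% interval of the difference stayed within 1 unit on the log2 scale for all 8, as it did for 78% of all genes tested.

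All embryos were labelled Landrace x Yorkshire x Duroc (LYD) and untreated. PA embryos developed from oocytes matured in vitro, activated by an electric pulse without sperm and transferred to the oviducts of surrogate gilts, so that both of their genome copies are maternal. CN embryos are bi-parental and, by the methods of the study, came from naturally mated gilts, a mode of breeding that the sample labels do not give; the deposited names of the CN tables carry the abbreviation AI, which the sources used here do not explain. Absence of a paternal genome, in vitro maturation, activation and embryo transfer all separate the groups together and cannot be told apart. The RNA of each embryo was selected by polyA, by the methods of the study, and sequenced from a library made without a stated strand selection.

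Insulin, IGF1 and IGF2 bind receptor tyrosine kinases of a small family to which the insulin receptor belongs. The activated receptor recruits phosphatidylinositol 3-kinase (PI3K), which leads to the kinase AKT, to mTOR and its S6 kinases and to the inactivation of the death-promoting protein BAD, and in parallel it switches on the GTPase Ras and the kinases RAF, MEK and ERK. RasGAP proteins turn Ras off, and LKB1, the product of STK11, activates the energy sensor AMPK, which holds mTOR back. In embryos this signalling is known for its control of growth, and IGF2 is a main growth factor before birth. The insulin receptor is made in a form without the residues of exon 11, which in other mammals binds IGF2 strongly, and a form with them, which favours insulin.

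Both INSR and HRAS have an alternative exon that changes the protein, and the sequences around these exons are shown because the transcript shares described further on turn on them. They were read from the Sscrofa11.1 genome by the annotation's exon boundaries, 5′ to 3′ on the strand of the gene, with the alternative exon in capitals and 15 bases of each neighbouring exon in lower case. INSR exon 11 of 22 lies at chr2:71904820-71904855 on the plus strand, is coding over all of its 36 bases and adds 12 codons, giving a reading frame of 1382 codons in place of 1370.
INSR with exon 11: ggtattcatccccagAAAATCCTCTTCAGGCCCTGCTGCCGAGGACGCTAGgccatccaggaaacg
INSR without exon 11: ggtattcatccccaggccatccaggaaacg
HRAS exon 5 of 6 lies at chr2:300344-300425 on the minus strand and has 82 bases. Its first 63 bases, chr2:300363-300425, are coding and end in a stop codon, so the reading frame has 170 codons with the exon and 189 without it.
HRAS with exon 5, to the stop codon: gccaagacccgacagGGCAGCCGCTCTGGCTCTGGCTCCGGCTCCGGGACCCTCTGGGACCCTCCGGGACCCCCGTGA
HRAS without exon 5: gccaagacccgacagggggtggaggacgcc
The exon of HRAS is rich in G and C, at 76.2% of the printed bases, against 58.3% in the exon of INSR. In human HRAS, inclusion of an alternative exon is known to replace the carboxyl end of the protein, where the lipid anchor to the membrane is attached.

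The deposited estimated counts summed to between 3100284 and 3276414 per CN embryo and between 3360478 and 3573406 per PA embryo. Genes of chromosome 2 held 82.8% to 92.7% of them, so that TPM, the level per length used here (transcripts scaled to a fixed sum per embryo), is relative almost wholly to that chromosome. A single transcript with no gene in the annotation, XR_902341385.1, took 6.88%, 7.74% and 7.60% of the counts in CN and 16.9%, 10.2% and 8.44% in PA, with the highest share in embryo PA1. The median TPM ratio of PA over CN across all genes tested was -0.05 on the log2 scale, whereas the median fold change of the count model, edgeR's quasi-likelihood test after TMM normalization, was 0.02. An amount of 3 counts equals 0.84 to 0.968 CPM (counts scaled to the library total), and the members had at least 359 counts in every embryo. That floor covers counting error only. Because whole embryos hold many cell types, fewer cells of a type and less RNA per cell cannot be told apart.

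The labelled tissue, whole embryo, was checked with markers on chromosome 2. Genes of muscle (MYOD1), nervous system (PAX6), red cells (KLF1), liver (F2), kidney (SLC22A6), gonadal ridge (WT1) and limb (PITX1) were present in all 6 embryos, with F2 between 1888 and 2857 TPM. PAG6, the placental marker on this chromosome, was listed at 0 in 5 embryos and had 0.413 TPM, from 1 count, in PA2. The second muscle marker, ACTN3, was low, at 8 to 22 counts. Of 13 markers tested, 5 were called, where 6.54% of all genes tested were called. The neural markers moved with the group, PAX6 by 0.84 (adjusted p = 0.00159) and SYT13 by 0.70 (adjusted p = 0.00244) on the log2 scale, both higher in PA. WT1 differed by -0.47 (adjusted p = 0.0217), and the kidney transporters SLC22A8 and SLC22A12 differed by -2.82 (adjusted p = 0.00348) and -4.32 (adjusted p = 0.000473), all lower in PA, while the third kidney transporter, SLC22A6, was at 0.13 (adjusted p = 0.839). SLC22A12 had 7, 3 and 4 counts in PA1 to PA3. MYOD1 and KLF1 were lower in every PA embryo than in every CN embryo. Neither was called, at -0.43 (adjusted p = 0.121) and -0.74 (adjusted p = 0.127). The part of these markers in the values of the 8 genes was not tested.

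With respect to the ligands, IGF2 stood at 14375, 19298 and 19167 TPM in CN1 to CN3 and at 351, 544 and 278 TPM in PA1 to PA3. The groups lay far apart, with a log2 fold change of -5.41 (SE 0.29, edgeR, adjusted p = 4.29e-05). INS, the insulin gene that lies beside IGF2, was at 42.3, 93.7 and 43.5 TPM in CN and 39.9, 32.0 and 91.4 TPM in PA, with 20 to 53 counts in PA. Its log2 fold change was -0.08 with a wide 95% interval from -1.07 to 0.91 (adjusted p = 0.937), and its sign turned without CN2, without PA1 and without PA2, with values from -0.57 to 0.34 over the 6 embryos left out in turn.

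The order of the 8 genes by level was MAP2K2, PIK3R2, STK11, HRAS, RASA1, BAD, RPS6KB2 and INSR. Mean TPM over the 6 embryos fell from 708 for MAP2K2 through 674 for PIK3R2, 480.0 for STK11, 318 for HRAS, 259 for RASA1, 224 for BAD and 178 for RPS6KB2 to 101 for INSR. The ranges over embryos did not overlap between STK11 and HRAS, between BAD and RPS6KB2, or between RPS6KB2 and INSR. The other neighbours overlapped: MAP2K2 exceeded PIK3R2 in 4 of 6 embryos, PIK3R2 exceeded STK11 in 5 of 6, HRAS exceeded RASA1 in 6 of 6, and RASA1 exceeded BAD in 5 of 6. The receptor was thus the lowest of the 8 genes in every embryo. Among all genes tested INSR stood at percentile 46.2 of mean TPM and MAP2K2 at percentile 87.3.

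**Figure D1:**
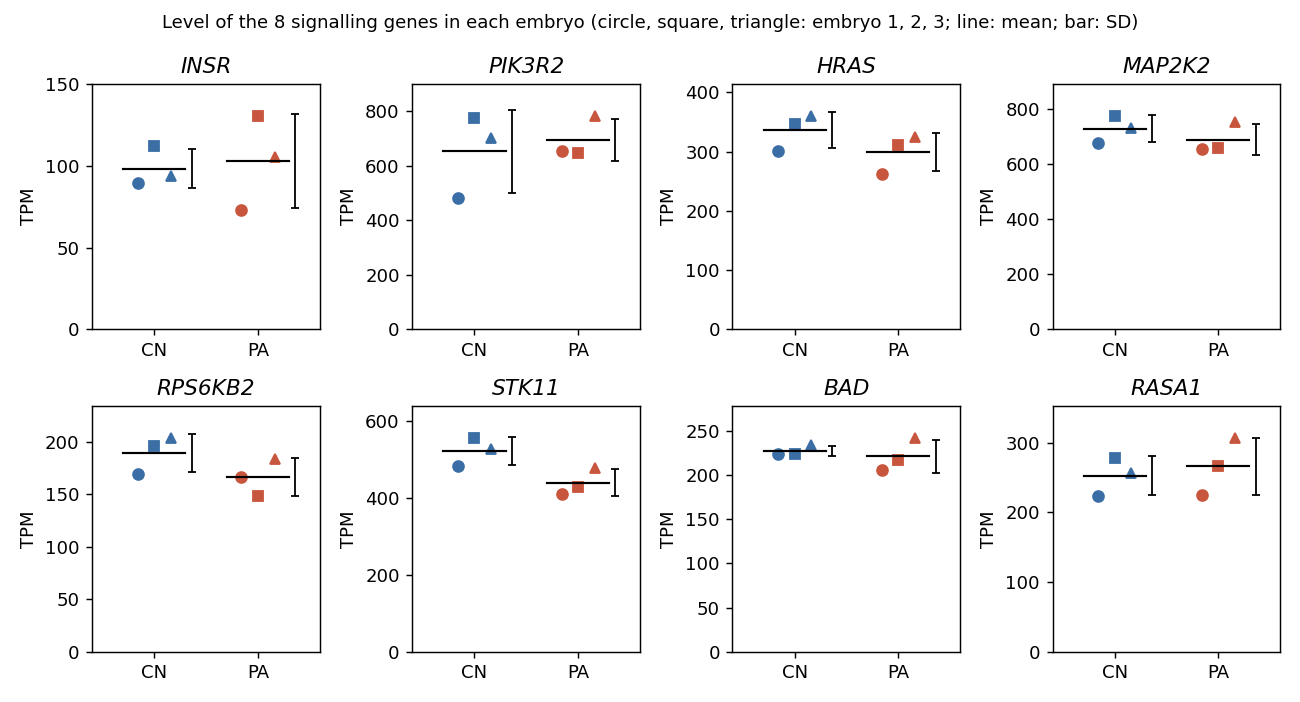
Level of each of the 8 genes in TPM (vertical axes, from 0) in the 3 CN (blue) and 3 PA (red) embryos, with the group mean as a line and the SD as a bar. CN and PA overlap in every panel except STK11, where the 3 PA embryos (409.9 to 478 TPM) lie below the 3 CN embryos (483 to 555 TPM).

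None of the 8 genes was called by edgeR at an adjusted p below 0.05, against 6.54% of all genes tested (108 of 1652, 35 higher and 73 lower in PA). DESeq2 also called 0 of the 8, where it called 173 of the same 1652 genes. At an unadjusted p below 0.05 each tool had 1 of the 8, STK11. Over all genes tested, edgeR had 21.2% (350 of 1652) and DESeq2 had 344 genes below it. Log2 fold changes were positive for 4 members and negative for 4, with a median of 0.01 beside 0.02 over all genes tested, and the median size regardless of sign was 0.13 beside 0.17. The bounds of the 95% intervals ran from -0.36 to 0.51 over the 8 genes. All 8 intervals lay within 1 log2 unit of 0, as did 78% of the intervals of all genes tested (1288 of 1652). The count over all genes depended on single embryos, with 48 called without CN2, 54 without CN3, 58 without PA2 and 70 without PA3, whereas the count of members called was 0 each time.

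**Figure D2:**
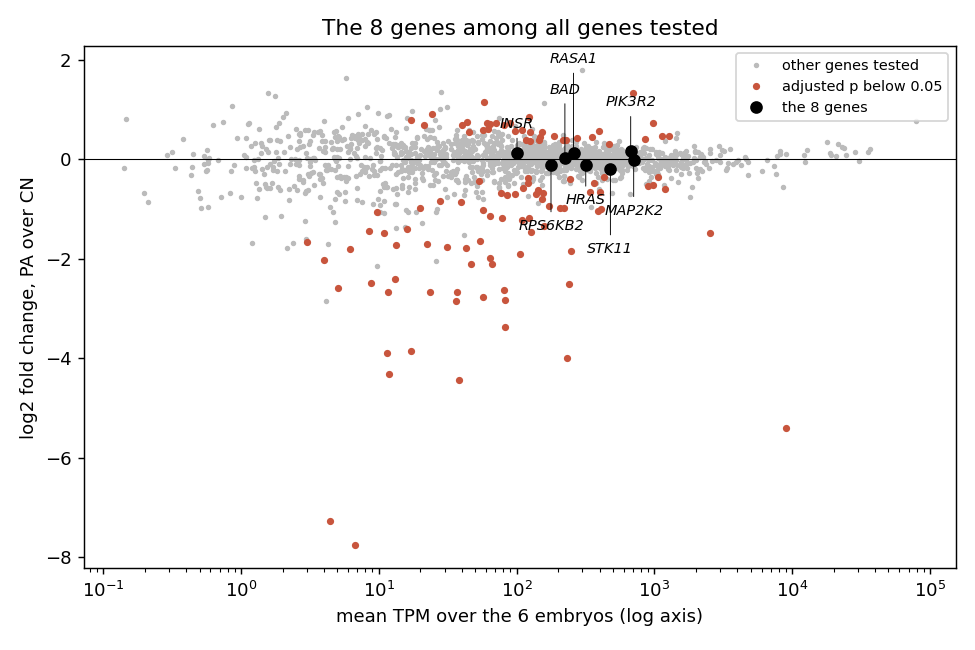
Log2 fold change of PA over CN (edgeR) against mean TPM over the 6 embryos (log axis) for each gene tested, with called genes in red and the 8 signalling genes as large black points. The 8 genes lie between -0.18 and 0.17, and the called gene farthest right among those below -5 is IGF2 at -5.41.

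INSR, the receptor, was at 89.4, 112 and 93.5 TPM in CN1 to CN3 and at 73.1, 131 and 106 TPM in PA1 to PA3. Both the lowest and the highest embryo were PA, so the CN range lay inside the PA range. Means were 98.3 ± 12.1 TPM in CN and 103 ± 28.9 TPM in PA (SD, n = 3 each), and the coefficient of variation was 12.3% in CN and 28.0% in PA. The log2 fold change was 0.13 (SE 0.17, 95% interval -0.25 to 0.51, adjusted p = 0.697). It rested on PA2, without which it was -0.08.

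PIK3R2 encodes a regulatory subunit of PI3K, the enzyme that relays the receptor signal towards AKT. It was at 482, 776 and 701 TPM in CN and at 653, 646 and 783 TPM in PA. The embryo CN1 lay below the other 5, and the groups overlapped. The log2 fold change was 0.17 (SE 0.12, 95% interval -0.11 to 0.44, adjusted p = 0.472), and it was 0.05 without CN1. On the opposite strand, LOC106507302 shares 388 exon bases with PIK3R2 and had 7 to 14 counts per embryo.

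In the Ras branch, HRAS, the GTPase that is switched on downstream of the receptor, was at 302, 347 and 361 TPM in CN and 262, 311 and 324 TPM in PA. The highest PA embryo lay above the lowest CN embryo, and the log2 fold change was -0.10 (SE 0.092, 95% interval -0.31 to 0.11, adjusted p = 0.579), nearer 0 without CN3 (-0.05) or without PA1 (-0.07). RASA1, the RasGAP that returns Ras to its inactive state, was at 223, 278 and 256 TPM in CN and 225, 266 and 306 TPM in PA. These values overlapped, with a log2 fold change of 0.14 (SE 0.080, 95% interval -0.04 to 0.32, adjusted p = 0.376). Exons of RASA1 share 2053 bases with CCNH on the opposite strand, and without strand information the reads of both genes cannot be told apart there. CCNH itself had a log2 fold change of 0.17 (adjusted p = 0.302).

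MAP2K2 encodes MEK2, a kinase that activates ERK. It was at 676, 775 and 732 TPM in CN and at 655, 657 and 753 TPM in PA, an overlap in which PA3 exceeded the CN mean of 728 TPM. Its log2 fold change of -0.01 (SE 0.072, 95% interval -0.18 to 0.15, adjusted p = 0.937) was the smallest of the 8 in size, and its sign turned without CN1 (0.01) or without PA2 (0.02).

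RPS6KB2 encodes an S6 kinase that acts below mTOR. It was at 169, 196 and 204 TPM in CN and at 167, 148 and 184 TPM in PA, with PA3 above CN1. The log2 fold change was -0.12 (SE 0.11, 95% interval -0.36 to 0.13, adjusted p = 0.582). It was -0.04 without PA2, -0.06 without CN3 and -0.18 without PA1.

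STK11 encodes LKB1, the kinase that activates AMPK. The values of this gene sum coding and non-coding transcripts, which are given apart further on. Summed in this way, STK11 was at 483, 555 and 526 TPM in CN1 to CN3 and at 409.9, 428 and 478 TPM in PA1 to PA3. The highest PA value thus lay under the lowest CN value. The separation held in normalized CPM, at 895, 870 and 867 in CN and 790, 757 and 775 in PA. STK11 was the only one of the 8 without overlap on either scale. Among all genes tested, 16.6% had all PA embryos lower in TPM (274 of 1652), 5.02% had all PA embryos higher (83 of 1652), and 28.3% had no overlap in normalized counts in either direction (468 of 1652). The log2 fold change was -0.18 (SE 0.070, 95% interval -0.34 to -0.02), which is a fold of 0.882 with an interval from 0.789 to 0.985. The unadjusted p was 0.0303 and the adjusted p was 0.176, and by DESeq2 the adjusted p was 0.123, so STK11 did not pass the threshold. The exact permutation test on log2(TPM + 0.1) gave p = 0.1, the smallest that 3 against 3 embryos can give. For the other 7 genes that test gave p from 0.2 to 1. Exons of STK11 share 531 bases with CBARP and 524 with LOC110259376 on the opposite strand, whose log2 fold changes were 0.15 (adjusted p = 0.652) and 0.13 (adjusted p = 0.647).

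BAD, a promoter of cell death that AKT inactivates by phosphorylation, was at 224, 224 and 234 TPM in CN and at 205, 217 and 242 TPM in PA. The PA embryos enclosed the CN embryos, and the coefficient of variation was 2.57% in CN and 8.47% in PA. The log2 fold change was 0.03 (SE 0.11, 95% interval -0.23 to 0.28, adjusted p = 0.913). Its sign turned without CN2 or with library totals in place of TMM factors, at -0.03 each. LOC106509317 on the opposite strand shares 89 exon bases with BAD and had 7 to 25 counts per embryo (log2 fold change 1.05, adjusted p = 0.196).

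**Figure D3:**
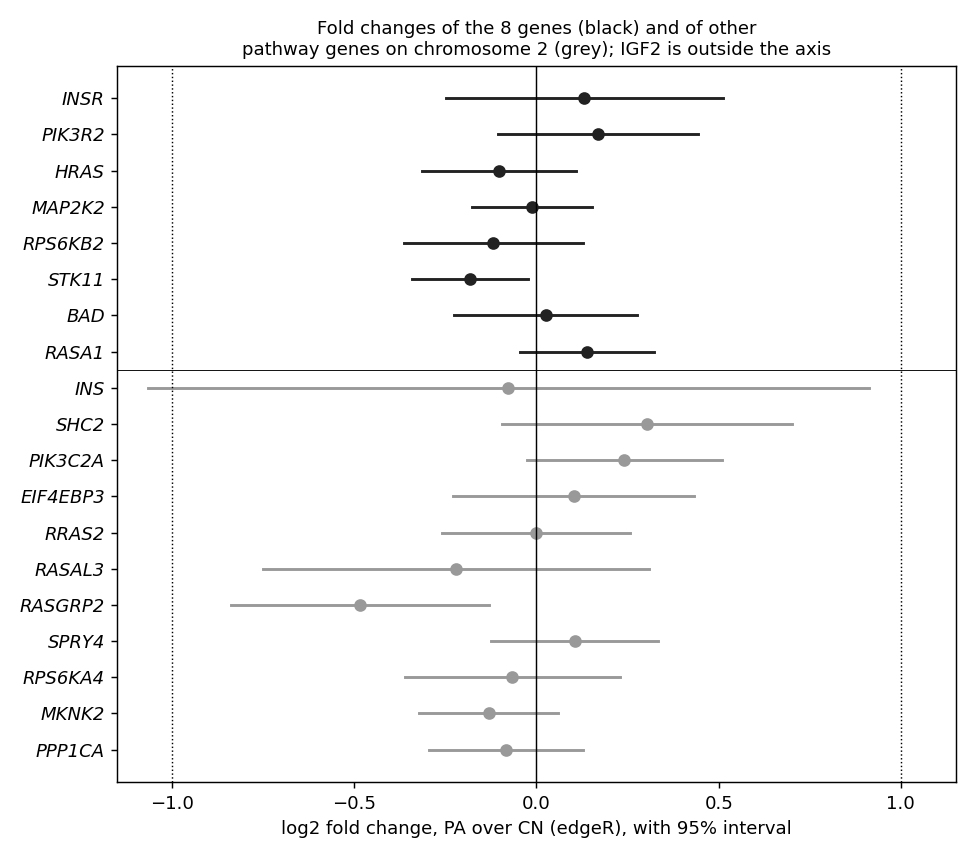
Log2 fold change of PA over CN from edgeR (points) with its 95% interval (lines) for the 8 genes (black) and for 11 other insulin and IGF pathway genes on chromosome 2 (grey), with dotted lines at 1 and -1. Of the black intervals that of STK11 excludes 0, from -0.34 to -0.02, and IGF2 at -5.41 is outside the axis.

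The genes around the 8 loci were also counted. HRAS, with 1.17 Mb between it and IGF2, was the nearest member to the imprinted locus, followed by RPS6KB2 at 3.59 Mb and BAD at 6.33 Mb, and the other 5 lay 58.1 to 93.4 Mb away. Within 0.5 Mb of the members, 22 of 267 other genes tested were called (8.24%, against 6.54% of all genes tested). The count of called neighbours was 5 of 45 for HRAS, 2 of 41 for RPS6KB2, 6 of 34 for BAD, 2 of 35 for PIK3R2, 3 of 37 for MAP2K2 and 4 of 51 for STK11, and it was 0 of 23 for INSR and 0 of 1 for RASA1. Differences between these counts were not tested.

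The 8 loci span 23 annotated transcripts, of which 7 belong to STK11, 4 each to INSR and RPS6KB2, 3 to RASA1, 2 to HRAS and 1 each to PIK3R2, MAP2K2 and BAD. In the fit over 3487 transcripts, 20 of the 23 were tested and 0 were called, against 0.258% of all transcripts (9 of 3487), and the lowest adjusted p among the 20 was 0.377. At an unadjusted p below 0.05 there were 4 of the 20, where all transcripts had 9.95% (347 of 3487). These 4 were XM_021083942.1 of INSR at 0.61 (SE 0.22, adjusted p = 0.448), XM_003354207.4 of RASA1 at 0.20 (SE 0.072, adjusted p = 0.448), and the non-coding STK11 transcripts XR_002341711.1 at -1.53 (SE 0.49, adjusted p = 0.377) and XR_002341714.1 at -0.46 (SE 0.18, adjusted p = 0.471) on the log2 scale. An INSR transcript, XM_021083941.1, and an RPS6KB2 transcript, XM_005660630.3, were listed at 0 in every embryo. The files hold no measure of how surely Salmon assigned reads among transcripts of a gene, so the spread between embryos is the only error behind the shares that follow.

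Without exon 11, the exon printed above, were 71.1%, 60.2% and 68.7% of INSR TPM in CN1 to CN3 and 81.7%, 68.7% and 83.6% in PA1 to PA3. The form lacking the exon was the larger part of INSR in every embryo, and the groups overlapped at CN1 and PA2. Means were 66.7% ± 5.76 in CN and 78.0% ± 8.15 in PA (SD, n = 3 each), a difference of 11.4 points with an exact permutation p of 0.2. The main transcript of that form, XM_021083942.1, held 56.2%, 36.6% and 62.1% in CN and 71.3%, 65.6% and 76.8% in PA, without overlap (exact permutation p = 0.1). The other transcript of that form, XM_021083943.1, went the opposite way, at 14.9%, 23.5% and 6.51% in CN and 10.5%, 3.06% and 6.83% in PA, with overlap (log2 fold change -1.16, SE 0.57, adjusted p = 0.604). The transcript with the exon, XM_021083940.1, had a log2 fold change of -0.38 (SE 0.45, adjusted p = 0.888). Single embryos moved this value, to -1.04 without PA2, -0.14 without PA1, -0.16 without PA3 and -0.18 without CN2, and the difference of 11.4 points ranged from 8.12 without CN2 to 16.04 without PA2.

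For HRAS, the transcript with the alternative exon, XM_021082554.1, held 30.7%, 30.0% and 27.7% of its TPM in CN and 33.6%, 37.2% and 35.9% in PA. All 3 PA embryos lay above all 3 CN embryos, by 6.10 points between the means of 29.5% ± 1.61 and 35.6% ± 1.82 (SD, n = 3 each; exact permutation p = 0.1). The difference stayed between 5.19 and 7.08 points when each embryo was left out. In the transcript fit neither form passed, at -0.22 (SE 0.12, adjusted p = 0.659) without the exon and 0.18 (SE 0.16, adjusted p = 0.837) with it. The latter value ranged from 0.11 without PA2 to 0.24 without PA1.

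STK11 was split between coding and non-coding transcripts. The 4 non-coding ones held 56.2%, 51.7% and 39.4% of STK11 TPM in CN and 36.9%, 41.0% and 42.2% in PA, an overlap through CN3, with a difference of -9.09 points (exact permutation p = 0.3) that was -5.54 points without CN1 and -13.9 without CN3. The leading coding transcript, XM_021084263.1, was at 192, 213 and 251 TPM in CN and 199, 213 and 225 TPM in PA. These values overlapped, with a log2 fold change of 0.04 (SE 0.10, adjusted p = 0.955). The separation seen for the sum of STK11 was thus absent from its leading coding transcript. Among the non-coding ones, XR_002341711.1 was at 367, 397 and 144 counts in CN and 148, 75 and 100 in PA. Another, XR_002341712.1, had a log2 fold change of 0.10 (SE 0.21, adjusted p = 0.948).

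RPS6KB2 had its leading transcript, XM_021082757.1, at 42.7%, 41.0% and 43.0% in CN and 43.5%, 46.0% and 58.9% in PA, where PA3 stood apart and the lowest PA embryo exceeded the highest CN embryo by less than 1 point (exact permutation p = 0.1). RASA1 had its leading transcript at 83.0% ± 3.13 in CN and 85.6% ± 1.46 in PA (SD, n = 3 each), with overlap. Over the 8 shares compared, the Benjamini-Hochberg adjusted exact p was 0.267 or higher. Of the 5 members with more than 1 transcript, 3 (INSR, HRAS and RPS6KB2) had a leading transcript whose share did not overlap between the groups, against 10.9% of all genes with several transcripts (95 of 872). For INSR this rests on XM_021083942.1, whose share overlapped once summed with XM_021083943.1, the other transcript without exon 11. They are much alike, with 9384 and 9335 bases in all. The difference from 10.9% was not tested. The grouping of transcripts by an alternative exon or by coding status was chosen after the values were seen.

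**Figure D4:**
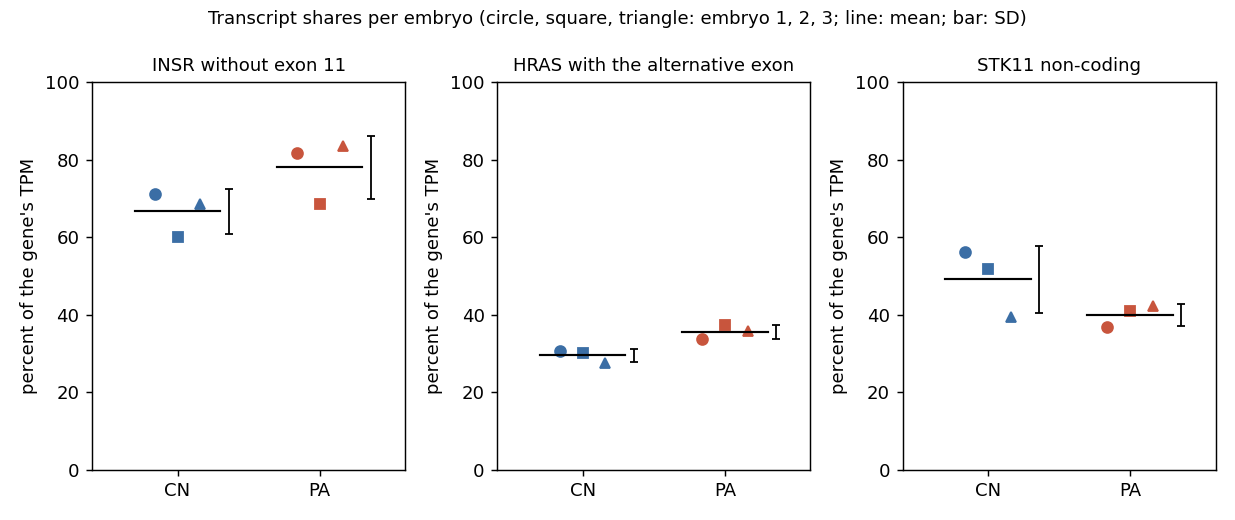
Share of the gene's TPM (percent, vertical axes from 0 to 100) in INSR transcripts without exon 11, HRAS transcripts with the alternative exon and STK11 non-coding transcripts in 3 CN (blue) and 3 PA (red) embryos, with group mean (line) and SD (bar). The groups are apart for HRAS alone, at 27.7% to 30.7% in CN and 33.6% to 37.2% in PA.

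A list of 131 ligands, receptors, adaptors, kinases, phosphatases and Ras regulators of the pathway was set beside the members. Of these, 20 lie on chromosome 2 and were tested, the 8 members and 12 others. Among the 12, 0 were called higher and 1 lower in PA, IGF2, where 6.54% of all genes tested were called. Their median log2 fold change was -0.07 with 4 positive and 8 negative, beside 0.02 with 875 positive and 777 negative over all genes tested. After IGF2, the highest of the 12 in mean TPM was PPP1CA, a phosphatase catalytic subunit, at 1779 ± 31.7 TPM in CN and 1604 ± 63.3 TPM in PA (SD, n = 3 each). Its groups did not overlap in TPM but did in normalized counts (log2 fold change -0.08, adjusted p = 0.658). Single embryos moved this fold change, to -0.01 without CN1, -0.04 without PA3 and -0.14 without PA1. MKNK2, a kinase of the translation factor eIF4E below ERK, was at 437 ± 64.3 and 379 ± 23.7 TPM (-0.13, adjusted p = 0.422). With embryos left out in turn, MKNK2 ranged from -0.18 without CN1 to -0.08 without PA3. EIF4EBP3, an inhibitor of eIF4E that mTOR controls, was at 185 ± 17.3 and 189 ± 24.9 TPM (0.10, adjusted p = 0.732). That fold change was 0.008 without PA2 and 0.17 without PA3.

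RRAS2, a GTPase related to Ras, was at 188 ± 9.20 TPM in CN and 181 ± 19.5 TPM in PA (SD, n = 3 each), and its fold change was near 0 with either sign under other settings. PIK3C2A, a PI3K of another class, was at 148 ± 26.7 TPM in CN and 167 ± 34.4 TPM in PA (0.24, adjusted p = 0.289). With embryos left out in turn, PIK3C2A ranged from 0.15 without PA3 to 0.32 without PA1. RASGRP2, which loads small GTPases with GTP, and SHC2, an adaptor of receptor tyrosine kinases, were named after their values were seen, since their groups did not overlap in normalized counts. RASGRP2 was at 93.4, 168 and 138 TPM in CN and 81.3, 90.9 and 96.6 TPM in PA, with a log2 fold change of -0.48 (SE 0.15, adjusted p = 0.111), and it was past the threshold by DESeq2 (adjusted p = 0.0494), without an expression filter (adjusted p = 0.0328) and without CN1 (adjusted p = 0.0232). SHC2 went the other way, at 49.7, 62.8 and 57.2 TPM in CN and 53.9, 84.2 and 61.1 TPM in PA, with a log2 fold change of 0.30 (SE 0.17, adjusted p = 0.376) that was 0.10 without PA2. Outside the ligand, no gene of the list on this chromosome was called by edgeR with the expression filter and all 6 embryos.

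The genes whose levels followed INSR most closely over the 6 embryos, outside the list, were LRRC4C (Pearson's r = 0.969), GCNT4 (r = 0.949) and RGS14 (r = 0.945). Those that followed STK11 were LOC100737764 (r = 0.995), CRB3 (r = 0.995) and LYVE1 (r = 0.990). These are descriptions, from log2 normalized counts of 1631 genes in 6 embryos that share the 2 groups and their libraries.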

How the data were processed

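RNA of 3 PA and 3 CN whole embryos was analysed. The authors quantified reads per transcript with Salmon 1.3.0 (per the labels, which also name STAR 2.7.5, Picard, SAMtools and Sscrofa11.1) and deposited estimated counts, TPM values and effective lengths for 81496 transcripts per embryo; 174 were not in the annotation. Transcripts were joined to genes with NCBI Annotation Release 106 of Sscrofa11.1. Gene sums of estimated counts were rounded and tested with edgeR 4.0.16 in R 4.3.3 (TMM factors, average transcript length offset, filterByExpr at a minimum count of 10 and total of 15, robust quasi-likelihood test, two-sided, Benjamini-Hochberg adjustment over all genes tested, threshold 0.05). Alternatives were DESeq2 1.42.0, library totals, genome-wide read pairs as library sizes, no length offset, other filters, chromosome 2 genes alone, a replicate block and each embryo left out. TPM and shares were compared by two-sided exact permutation with a pseudocount of 0.1 on log2 TPM. Joins and permutations were run in Python 3.11.15 (pandas 2.3.3, scipy 1.17.1). The fit was tested on simulated data.

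Groups came from the sample titles. No source states that same-numbered embryos share a litter, and p-values measure the spread between these embryos. The study names a pair of gilts for each group, surrogates in PA and mated gilts in CN, so some of the 3 embryos of a group share a gilt; which ones is not given in the sources used here, and p-values that treat the embryos as independent may be too small. Replicates within a group differed by more than sampling noise. The members and lists were chosen with earlier results of these data known. Named genes were the members, IGF2, INS, called genes of the pathway list on chromosome 2, the 5 other genes of it with the highest TPM and the 3 genes most like INSR and like the member with the smallest p; others are named as chosen later. The bisulfite data of the study were not used here.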

Additional observations from a re-analysis of the deposited data

How the results depend on the processing

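In every alternative run, 0 of the 8 members were called; for their transcripts, with 0 called each time, these were library totals, no expression filter, the replicate block and each embryo left out. Of 452 recomputed values, 425 kept their side of the threshold with the same sign or, for differences of TPM and of transcript shares, moved by less than the spread between embryos or, for counts of called genes, stayed within 1.5 times. Such TPM differences changed sign for INSR, PIK3R2, MAP2K2, BAD and RASA1, as did the share of RPS6KB2 in non-coding transcripts. The number of genes called was 108; it was 173 with DESeq2, 196 with no expression filter and 48 to 128 with each embryo left out. The number of pathway genes called was 1; it was 2 with DESeq2 and with no expression filter, and 1 to 2 with each embryo left out, the added gene being RASGRP2 (log2 fold change -0.49 with DESeq2, -0.48 with no filter and -0.62 without CN1). Signs of small differences turned: INSR ranged from -0.082 to 0.29, MAP2K2 from -0.034 to 0.020, BAD from -0.025 to 0.093, INS from -0.57 to 0.34 and RRAS2 from -0.053 to 0.12 with each embryo left out. In other settings MAP2K2 was 0.0026 with no length offset, BAD was -0.034 with library totals, and RRAS2 was 0.0050 with genome-wide read pairs as library sizes and 0.031 with no length offset. The causes were not tested. STK11 ranged from -0.24 to -0.15 with adjusted p from 0.123 to 0.566.

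Deviations of same-numbered PA and CN embryos from their group means correlated at 0.25, 0.12 and 0.04, and those of different numbers at -0.24 to 0.17, so the numbers were not taken as pairing. With the replicate block, 104 genes, 0 members, 0 member transcripts and 1 pathway gene were called, RRAS2 was 0.0046, and STK11 was -0.18 (adjusted p = 0.175). The 4 shares grouped by alternative exon or coding status, computed from counts in place of TPM, an alternative chosen after seeing the data, moved by less than the spread between embryos. At 3 embryos per group the exact test cannot go below 0.1, and INS had 20 to 53 counts per embryo.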
